A study of Homo sapiens with 6 samples.

Results

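The messenger RNAs of 9 giant proteins (AHNAK, MACF1, BIRC6, DYNC1H1, HUWE1, UBR4, PLEC, UTRN and MYCBP2) were examined in RNA libraries made with probes against the long noncoding RNA SNHG10 or against LacZ. The genes were chosen by name for the size of their proteins, and all 9 were found among the 11593 genes listed, as 55 of 28768 transcript rows. The libraries are labelled as ChIRP, in which biotinylated DNA probes complementary to an RNA retrieve it with what is crosslinked to it. They came from SK-Hep1, an established human liver cancer cell line labelled as hepatocellular carcinoma. In 3 libraries a complete probe set for SNHG10 was used, and in 3 libraries a control probe set for LacZ, a bacterial gene absent from human cells. No other treatment is given. The labelled protocol describes Trizol extraction and libraries from total RNA, without a pull-down step, so the RNA fraction sequenced is not settled by the sources used here. SNHG10 itself was not analysed here, so the labels could not be checked against the targeted RNA.

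Values are FPKM, fragments per kilobase of transcript and per mapped total, and are therefore already divided by transcript length. A gene level is the sum over its listed transcripts. Listed values totalled 268794 to 272909 FPKM under SNHG10 probes and 271354 to 277118 under LacZ probes. The read depth is unknown. Separate cultures are not stated for the replicates, so every p-value reflects the spread among these 6 libraries, which may be technical. Among 8 markers of hepatocytes, CPS1 reached no more than 1.53 FPKM and SERPINA1 no more than 1.24, while ALB, APOA1, APOB, TTR, HNF4A and TF were looked up and had no row to analyse here. Of the mesenchymal markers, VIM read 833 to 1522 FPKM, ACTA2 7.69 to 40.8, TAGLN 1.38 to 20.99 and COL1A1 0.715 to 4.37. The endothelial marker ENG read 30.7 to 41.8 FPKM and the leukocyte markers CD68 35.3 to 54.4 and CD14 0.763 to 2.69. Hepatocyte markers were thus near 0 where listed.

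Giant proteins of this kind fall into a few families. AHNAK is a scaffold at the cell membrane whose reading frame lies mostly in a single very large exon. MACF1 links actin to microtubules, PLEC (plectin) links intermediate filaments to other structures, and UTRN (utrophin), a relative of dystrophin, links actin to the dystroglycan complex. DYNC1H1 is the motor heavy chain of cytoplasmic dynein. HUWE1, UBR4 and MYCBP2 are ubiquitin ligases, and BIRC6 joins a ubiquitin-conjugating domain to an inhibitor-of-apoptosis repeat. A long messenger RNA offers more sequence to an off-target probe and to breakage than a short one, which is why such transcripts serve as a check on background in a probe pull-down. Neither process was measured here.

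No giant-protein mRNA passed the test between probe sets. In limma on log2(FPKM + 1), with Benjamini-Hochberg adjustment over 10304 genes, 0 of the 9 were higher and 0 lower. The background was the same, since 0% of all genes were called in either direction. At an unadjusted p under 0.05 there were 558 genes (5.42%) and 1 of the 9, MACF1. limma without trend and robust eBayes also called 0 genes, with 574 and 544 genes at an unadjusted p under 0.05. Adjusted p of the 9 by limma ran from 0.885 to 0.976. The log2 difference, SNHG10 minus LacZ probes, was negative for 7 and positive for 2, with a median of -0.12, beside 56.7% negative and a median of -0.05 over all genes tested. With median-ratio scaling the split was 5 and 4, and 50.2% of all genes were negative. The 3 libraries of one probe set lay wholly above the other for 1 of the 9 (4.22% of all genes) and wholly below for 1 (7.21%), 2 in all against 11.4% of all genes.

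**Figure D1:**
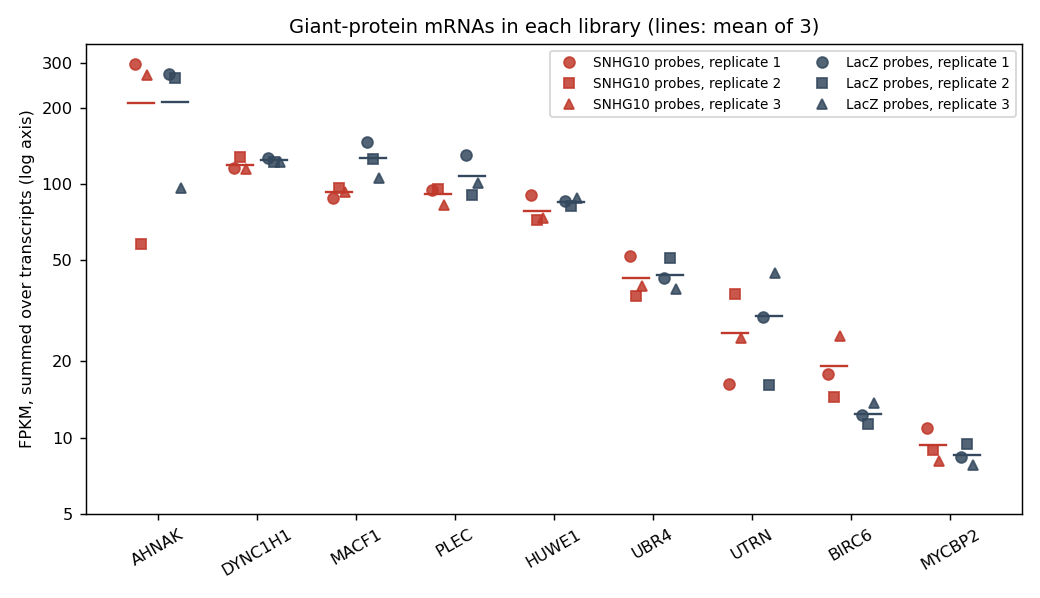
FPKM of each giant-protein mRNA (vertical axis, log scale) in the 6 libraries, with SNHG10 probes in red, LacZ probes in dark blue, replicates by symbol and a line at the mean of 3. Only MACF1 and BIRC6 have probe sets that do not overlap, and AHNAK has 1 low library in each probe set (57.9 and 96.8 FPKM).

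Per unit of transcript length the 9 mRNAs differed widely in level. By mean over all libraries the order ran AHNAK, DYNC1H1, MACF1, PLEC, HUWE1, UBR4, UTRN, BIRC6 and MYCBP2. The first place of AHNAK did not hold in every library, since its range of 57.9 to 298 FPKM covered those of DYNC1H1, MACF1, PLEC and HUWE1. In SNHG10 replicate 2 AHNAK was below all of these, and in LacZ replicate 3 below DYNC1H1, MACF1 and PLEC. The mean of AHNAK was 209 ± 131 FPKM for SNHG10 probes and 211 ± 98.7 for LacZ probes (SD over 3 libraries each). MYCBP2, at the other end, had means of 9.34 ± 1.48 and 8.54 ± 0.803. The ranges over the 6 libraries of DYNC1H1, MACF1 and PLEC overlapped, as did those of PLEC and HUWE1, so neighbours in that stretch did not separate by their spread over libraries, although PLEC was above HUWE1 within each library. Ranges also overlapped for UBR4 and UTRN and for UTRN and BIRC6. Every HUWE1 value was above every UBR4 value. MYCBP2 lay below every other member in every library.

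Among the cytoskeletal linkers, MACF1 was the member with the smallest p. MACF1 (chromosome 1, 39549804 to 39952849, plus strand, hg19) read 88.1, 97.0 and 93.2 FPKM under SNHG10 probes and 147, 126 and 106 under LacZ probes. Every SNHG10 library was below every LacZ library. The log2 difference was -0.43 ± 0.14 (SE; 95% interval -0.76 to -0.09), with an unadjusted p of 0.0188 and a limma adjusted p of 0.885. The two-sided exact permutation p was 0.1, the smallest that 3 against 3 libraries allow. It ranked 209 of 10304 genes by p.

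That difference in the sum was spread unevenly over 11 listed MACF1 transcripts. MACF1-203 and MACF1-204, which span nearly the whole gene, read 30.2 and 8.23 FPKM in LacZ replicate 1 and were listed at 0 in the other 5 libraries. MACF1-222, which spans 49.7 kb inside the gene, read 12.5, 7.68 and 3.76 FPKM under SNHG10 probes and 63.0, 32.5 and 5.22 under LacZ probes. MACF1-201, the highest row, read 21.7, 31.1 and 34.6 against 22.3, 0 and 32.3, for a log2 difference of 1.69 ± 1.301 (SE) in the transcript fit (limma adjusted p = 0.951). The sum and its highest row thus had opposite signs, and no MACF1 row passed. Without LacZ replicate 1 the log2 difference of the sum was -0.31.

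PLEC (chromosome 8, 144989315 to 145050902, minus strand) read 94.98, 95.9 and 82.6 FPKM under SNHG10 probes and 130, 91.0 and 101 under LacZ probes. The probe sets overlapped, and LacZ replicate 1 was the highest library, as it was for MACF1. The log2 difference was -0.22 ± 0.16 (SE; limma adjusted p = 0.928), and -0.08 without that library. All 10 listed PLEC rows end near the same downstream point or lie inside the gene, as rows with different upstream starts. PLEC-210, the highest, read 47.7, 47.5 and 33.2 against 61.7, 41.6 and 56.6 FPKM. PLEC-211, a row of 5.08 kb inside the gene, read 6.90, 2.69 and 5.14 against 11.25, 7.79 and 7.55, lower in each SNHG10 library than in any LacZ library (limma adjusted p = 0.951, exact permutation p = 0.1).

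UTRN (chromosome 6, 144606837 to 145174170, plus strand) read 16.4, 36.8 and 24.6 FPKM against 29.9, 16.2 and 44.6. Its libraries ranged over 2.76-fold and overlapped, with a log2 difference of -0.17 ± 0.41 (SE; limma adjusted p = 0.968). The row that spans 98.9% of the gene, UTRN-204, was far steadier, at 9.33, 6.27 and 8.58 against 7.799, 8.33 and 8.22 FPKM. Most of the spread came from shorter rows. UTRN-208, with 20.7% of the span, read 7.03, 13.7 and 6.24 against 19.4, 7.35 and 21.4, and UTRN-207 read 14.5 FPKM in SNHG10 replicate 2 and at most 2.095 elsewhere.

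AHNAK (chromosome 11, 62201014 to 62323707, minus strand) had the largest spread of the 9. Its sum read 298, 57.9 and 270 FPKM under SNHG10 probes and 272, 263 and 96.8 under LacZ probes. In 4 libraries it lay between 263 and 298, and in SNHG10 replicate 2 and LacZ replicate 3 it was far lower. The probe sets therefore overlapped, and the log2 difference was -0.19 ± 0.65 (SE; 95% interval -1.71 to 1.33; limma adjusted p = 0.975). Leaving out SNHG10 replicate 2 gave 0.57, leaving out LacZ replicate 3 gave -0.67, and leaving out both gave 0.08.

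The low AHNAK libraries traced to a single row, AHNAK-202, the transcript with the giant reading frame. AHNAK-202 (chromosome 11, 62283377 to 62314307) read 256, 13.1 and 253 FPKM under SNHG10 probes and 258, 262 and 14.02 under LacZ probes. The 4 high values lay within 253 to 262, and the highest was 20.01 times the lowest. AHNAK-202 held 86.0% to 99.7% of the gene sum in those 4 libraries, 22.6% in SNHG10 replicate 2 and 14.5% in LacZ replicate 3. The other 6 rows together read 44.8 and 82.8 FPKM in these libraries, and 0.741 to 41.7 in the rest. Of 364 genes whose mean reached 100 FPKM, 2 (0.549%) had a highest library at least 5 times the lowest, AHNAK and the histone gene HIST2H4B. Whether the low values are failed estimates was not tested.

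**Figure D2:**
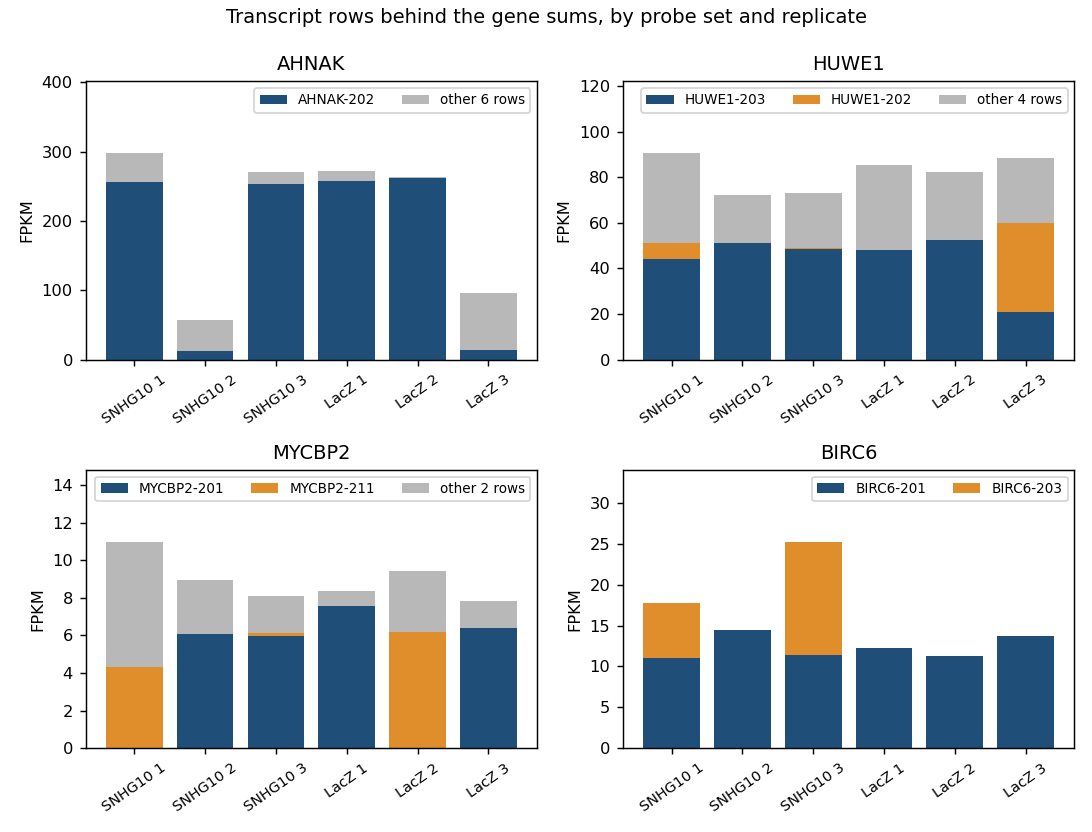
Stacked FPKM of listed transcript rows (bars start at 0) of AHNAK, HUWE1, MYCBP2 and BIRC6 in each library. AHNAK-202 falls to 13.1 and 14.02 FPKM in SNHG10 2 and LacZ 3, HUWE1-202 rises to 38.9 in LacZ 3, MYCBP2-211 stands in for MYCBP2-201 in SNHG10 1 and LacZ 2, and BIRC6-203 appears in SNHG10 1 and SNHG10 3.

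DYNC1H1, the dynein heavy chain, was the steadiest member. It lies on chromosome 14 (102430865 to 102517128, plus strand) and read 116, 128 and 114 FPKM under SNHG10 probes and 127, 122 and 122 under LacZ probes. The highest library was 1.12 times the lowest, and the within-probe-set SD of 0.07 on the log2 scale was below that of 99.1% of genes tested. The log2 difference was -0.05 ± 0.11 (SE), with a 95% interval from -0.30 to 0.19 (limma adjusted p = 0.959). That interval corresponds to 0.811 to 1.14 times the LacZ level. DYNC1H1-201 held all of the sum in 5 libraries, and a short row, DYNC1H1-202, added 5.02 FPKM in LacZ replicate 1.

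The ubiquitin ligases did not separate the probe sets as gene sums. HUWE1 (chromosome X, 53559057 to 53713674, minus strand) read 90.5, 72.1 and 73.3 FPKM against 85.4, 82.3 and 88.3, with a log2 difference of -0.12 ± 0.14 (SE; limma adjusted p = 0.932). SNHG10 replicate 1 was the highest library and the other SNHG10 libraries the lowest. HUWE1-203 read 44.4, 51.1 and 48.5 against 48.0, 52.4 and 20.9 FPKM, and HUWE1-202, which covers nearly the same stretch, read 7.02, 0.180 and 0.336 against 0.166, 0 and 38.9. Their sum was 51.4, 51.2 and 48.9 against 48.2, 52.4 and 59.8 FPKM. In LacZ replicate 3 the first row was low and the second high, while the pair together stayed near the other libraries. A row of 3.90 kb, HUWE1-215, added 12.8 to 28.3 FPKM.

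UBR4 (chromosome 1, 19401000 to 19536770, minus strand) read 52.1, 36.1 and 39.7 FPKM against 42.6, 50.9 and 38.5. These overlapped, with a log2 difference of -0.05 ± 0.19 (SE; limma adjusted p = 0.976). Its full-span row told a different order. UBR4-204 read 29.7, 32.8 and 32.2 FPKM under SNHG10 probes and 36.9, 35.1 and 35.5 under LacZ probes, lower in every SNHG10 library. Its log2 difference in the fit over all transcript rows was -0.18 ± 0.15 (SE; limma adjusted p = 0.951, exact permutation p = 0.1). The short row UBR4-202, with 22.4% of the span, read 15.7, 0 and 4.47 against 1.12, 5.56 and 0.443 FPKM.

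MYCBP2 (chromosome 13, 77618790 to 77901179, minus strand) read 10.97, 8.96 and 8.08 FPKM against 8.38, 9.41 and 7.82, overlapping, with a log2 difference of 0.11 ± 0.24 (SE; limma adjusted p = 0.966). Its full-length rows, MYCBP2-201 and MYCBP2-211, cover nearly the same stretch. MYCBP2-201 read 0, 6.09 and 5.98 against 7.54, 0 and 6.41 FPKM, and MYCBP2-211 read 4.32, 0 and 0.143 against 0, 6.17 and 0. Where the first was listed at 0 the second was high. Their sum was 4.32, 6.09 and 6.13 FPKM under SNHG10 probes and 7.54, 6.17 and 6.41 under LacZ probes. It was lower in every SNHG10 library, by a small margin between the nearest values, 6.13 and 6.17 FPKM. The log2 difference was -0.25 ± 0.25 (SE; limma adjusted p = 0.917, exact permutation p = 0.1). The share of all genes without overlap in full-length rows is not given here. The sign of MYCBP2 thus turned with the rows counted.

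BIRC6 (chromosome 2, 32582096 to 32843966, plus strand) was the only member higher in every SNHG10 library than in any LacZ library. It read 17.8, 14.4 and 25.2 FPKM against 12.3, 11.3 and 13.7. The log2 difference was 0.55 ± 0.25 (SE; 95% interval -0.03 to 1.13; unadjusted p = 0.0588, limma adjusted p = 0.885, exact permutation p = 0.1). Its full-span row, BIRC6-201, read 11.1, 14.4 and 11.38 against 12.3, 11.3 and 13.7 FPKM, overlapping, with a log2 difference of -0.02 ± 0.23 (SE; limma adjusted p = 0.995). The separation of the sum rested on BIRC6-203, a row of 7.79 kb inside the gene (32658716 to 32666503). BIRC6-203 read 6.72, 0 and 13.8 FPKM in the libraries made with SNHG10 probes but was listed at 0 in the 3 LacZ libraries. It failed the filter for testing, since it reached 1 FPKM in 2 libraries.

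**Figure D3:**
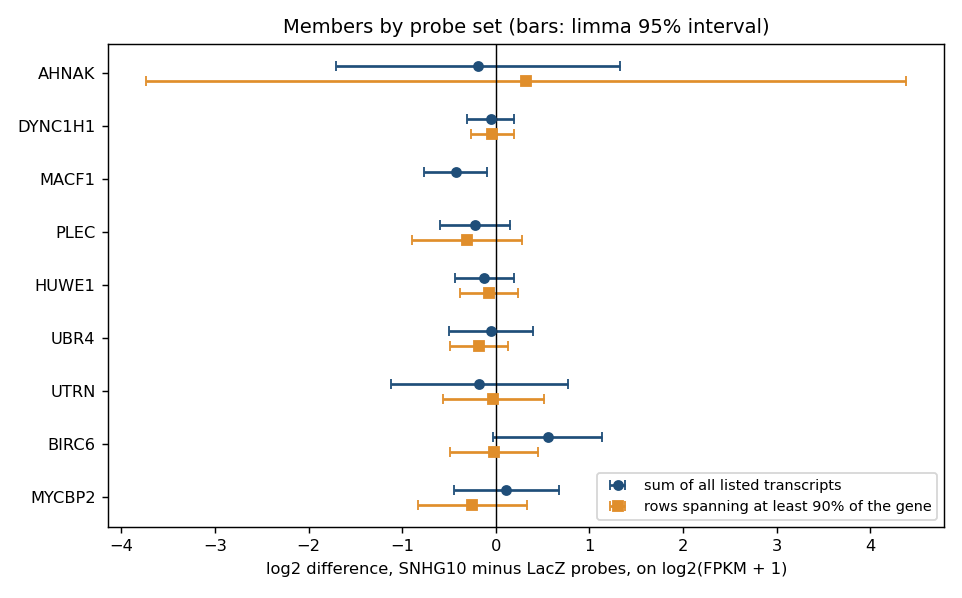
Log2 difference, SNHG10 minus LacZ probes, on the log2(FPKM + 1) scale, with limma 95% intervals, for the sum of all listed transcripts (circles) and for rows that span at least 90% of the gene (squares; MACF1 has no tested value). BIRC6 moves from 0.55 to -0.02 and MYCBP2 from 0.11 to -0.25 between the measures, and the AHNAK square is AHNAK-201, without the giant reading frame.

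Transcript rows of the 9 genes gave no call. Of 55 rows, 35 reached at least 1 FPKM in at least 3 libraries and were tested among 16618 rows by limma, and 0 passed, beside 8 rows higher (0.0481%) and 7 lower (0.0421%) in the whole table. None of the 35 had an unadjusted p under 0.05, against 5.66% of all rows, and the smallest adjusted p was 0.951. The log2 difference was positive for 13 and negative for 22, beside 53.9% negative over all rows tested. Libraries did not overlap for 2 rows, PLEC-211 and UBR4-204, both lower, against 10.5% of all rows in either direction and 6.06% lower. Of the 55 rows, 31 were listed at 0 in at least 1 library and 24 were above 0 in all 6. MYCBP2 had no row above 0 in all libraries, and PLEC had 7 of 10.

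Summed over the 9 genes, the level was 784, 547 and 731 FPKM under SNHG10 probes and 855, 773 and 619 under LacZ probes, or 0.204% to 0.292% and 0.228% to 0.311% of the listed total. The probe sets overlapped, and the lowest library of each was the one with low AHNAK. Without AHNAK the sums were 487, 489 and 461 against 583, 510 and 522 FPKM. All 3 SNHG10 sums were then below the LacZ sums, with 489 and 510 FPKM as the nearest values. AHNAK was left out after the data were seen. The means differed by 59.0 FPKM, or by 36.7 FPKM without LacZ replicate 1 and 37.9 with median-ratio scaling. Whether the sums also stayed apart under that scaling was not examined. For all 9 genes the difference of means, SNHG10 minus LacZ, was -61.1 FPKM. It was -32.3 with median-ratio scaling, -126 when LacZ replicate 3 was dropped, -8.16 when LacZ replicate 1 was dropped and 8.98 when SNHG10 replicate 2 was dropped. With the highest transcript of each gene in place of its sum it was -10.9. These are descriptions of genes chosen with earlier results known, given without a test. MACF1 made up 33.5 FPKM of the 59.0 and PLEC 16.2.

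Across all genes, the probe-set difference showed little relation to how much of the genome a gene spans. Lengths of messenger RNAs or proteins were not used here, so genomic span, which includes introns, was taken from the listed coordinates. In 10 equal bins of about 1030 genes, the median log2 difference was -0.03 in the narrowest bin (up to 4.88 kb) and -0.05 in the widest (139 kb and over), and ran from -0.10 to -0.03 over the 10. Spearman's rho between span and log2 difference was -0.009 across 10304 genes, which share the libraries and are not independent replicates. The 9 genes fell in the upper bins, with 5 in the widest, 3 in the next and PLEC, at 61.6 kb, in the one after that. MACF1 and BIRC6, both in the widest bin, lay outside the middle 50% of that bin (-0.27 to 0.18), on opposite sides.

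**Figure D4:**
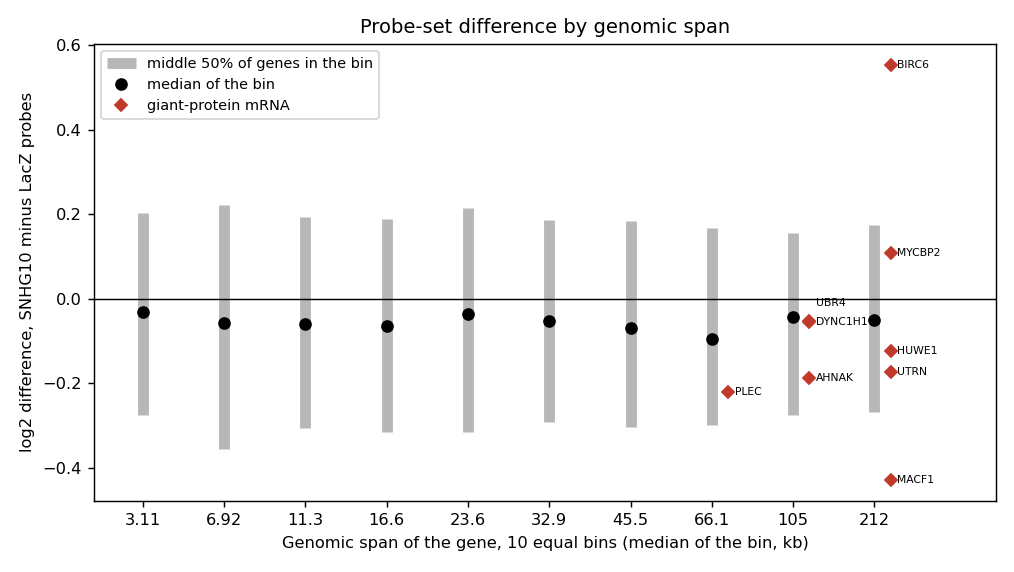
Log2 difference, SNHG10 minus LacZ probes, of 10304 genes in 10 equal bins of genomic span (horizontal axis, median span in kb); black points are bin medians, grey bars the middle 50% of genes, red diamonds the 9 giant-protein mRNAs. Bin medians stay between -0.10 and -0.03, with MACF1 at -0.43 and BIRC6 at 0.55 in the widest bin.

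A wider list of 61 very long mRNAs, none of them among the 9, was read in the same fit. Of 60 tested, 0 were called in either direction, 20 log2 differences were positive and 40 negative, and the median was -0.07. With median-ratio scaling the split was 29 and 31 and the median -0.02, close to the median of all genes under that scaling (-0.002). Libraries did not overlap for 7, all lower, or 11.7% of the list, beside 11.4% of all genes in either direction and 7.21% lower. The member with the smallest p was ATM, a kinase of the DNA damage response, at 5.82, 6.86 and 7.33 FPKM against 10.4, 13.4 and 8.28 (log2 difference -0.59 ± 0.27 SE, limma adjusted p = 0.885). USP9X, a deubiquitinase, read 21.9, 31.1 and 33.1 against 21.8, 20.8 and 22.6, and FAT1, a giant cadherin, 38.8, 37.8 and 34.0 against 35.2, 49.5 and 58.9.

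Partners of the cytoskeletal members gave no call either. Of 22 tested plakins, spectrins, crosslinkers and intermediate filament genes, 4 were positive and 18 negative, with a median of -0.15, and 5 and 17 with median-ratio scaling. Over all genes tested, 56.7% were negative, and 50.2% with median-ratio scaling. Probe sets did not overlap for 4 of the 22, all lower (18.2%), beside 11.4% of all genes in either direction and 7.21% lower. KRT8, a keratin that plectin binds, was lower in every SNHG10 library than in any LacZ library (log2 difference -0.23 ± 0.09 SE, limma adjusted p = 0.885), and VIM overlapped (-0.44 ± 0.21). Of 6 tested genes of the dystrophin complex, 1 was positive and 5 negative, and 0 had probe sets without overlap. DAG1, which encodes the dystroglycan that utrophin binds, read 26.0, 0 and 19.5 FPKM against 27.7, 27.8 and 3.92. Its lowest libraries were the same as those of AHNAK, SNHG10 replicate 2 and LacZ replicate 3. The share of all genes with these lowest libraries is not given here, so no link to AHNAK is drawn. DTNB and SGCE read at most 3.71 and 16.4 FPKM, with log2 differences of -0.45 and 0.21.

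Genes around AHNAK had no drop of its size. In SNHG10 replicate 2 the 6 genes of this list stood at 86.7% to 123% of the mean of the other SNHG10 libraries, and AHNAK at 20.4%. In LacZ replicate 3 they stood at 93.5% to 131% of the mean of the other LacZ libraries, and AHNAK at 36.2%. The lowest library of each probe set was one of these for MYOF and S100A11 too, by small margins. MYOF stood at 94.7% and 97.5% of the mean of the other libraries, and S100A11 at 86.7% and 93.5%. How common this is over all genes is not given here. ANXA2, an annexin found in complexes with AHNAK and S100A10, read 887, 869 and 817 FPKM against 871, 809 and 807. MYOF, a membrane repair protein, read 292, 280 and 299 against 307, 308 and 299, and S100A11, a calcium-binding protein, 403, 359 and 424 against 329, 328 and 307. S100A11 was higher in every SNHG10 library (log2 difference 0.29 ± 0.10 SE, limma adjusted p = 0.885), and MYOF was lower in every one, with 298.7 FPKM in its highest SNHG10 library and 299.5 in its lowest LacZ library (-0.07 ± 0.08, limma adjusted p = 0.933). Of the 6 genes in this list 5 were positive and 1 negative, beside 56.7% negative over all genes, and 0 passed. S100A11 and MYOF were the only ones without overlap, 1 higher and 1 lower, beside 4.22% and 7.21% of all genes.

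Around DYNC1H1, 25 genes of dynein and dynactin were tested and 0 were called, with 9 positive, 16 negative and a median of -0.10, or 12 and 13 with median-ratio scaling. Over all genes tested, 56.7% were negative, and 50.2% with median-ratio scaling. Probe sets did not overlap for 2 of the 25, all lower (8%), beside 11.4% of all genes in either direction and 7.21% lower. ACTR1A, the actin-like filament of dynactin, read 24.8, 29.4 and 25.5 FPKM against 39.6, 33.4 and 29.5, without overlap (log2 difference -0.34 ± 0.18 SE, limma adjusted p = 0.907). DCTN1, the large dynactin subunit, read 57.9, 49.5 and 38.8 against 10.98, 44.5 and 44.1, with LacZ replicate 1 far below the rest. DCTN5 read 6.26, 9.73 and 18.8 against 13.3, 4.77 and 0.848. Of 20 tested ubiquitin ligases and partners outside the 9, 7 were positive and 13 negative, with a median of -0.11, and 0 passed. With median-ratio scaling the split was 8 and 12. In the unscaled values, probe sets did not overlap for 2 of the 20 (10%), all lower, beside 11.4% of all genes in either direction and 7.21% lower. TRIP12, a HECT ligase, read 40.8, 44.6 and 47.5 FPKM against 69.2, 45.3 and 60.3. UBE3A, another HECT ligase, read 23.9, 15.1 and 7.90 against 10.3, 7.32 and 7.99, and UBA6, the activating enzyme that works with BIRC6, 6.55, 4.28 and 8.62 against 10.5, 6.92 and 8.47.

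The summed level of the 9 was lowest in each probe set where AHNAK was low. Other genes were then picked for a pattern over the 6 libraries most like that sum. Sharing its low libraries was thus largely set by the choice. Among 10295 other genes, the highest Pearson r over 6 libraries were those of CLK4 (0.989), ST5 (0.986), TRAPPC1 (0.986), CCNT2 (0.981) and AL591479.1 (0.980). ST5 read 21.1, 7.17 and 17.3 FPKM under SNHG10 probes and 30.4, 22.4 and 8.32 under LacZ probes, and TRAPPC1 75.3, 42.2 and 63.8 against 76.7, 70.3 and 53.5. CLK4, CCNT2 and AL591479.1 were low, at 0 to 2.18, 0.0731 to 5.02 and 0.618 to 5.53 FPKM. All 5 had their lowest library of each probe set in SNHG10 replicate 2 and LacZ replicate 3. With so few libraries and so many genes, 28 reached an r of 0.95 or more, and the values are a description only.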

How the data were processed

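The authors deposited one FPKM value per transcript and library, per the file headers. The submitters' processing notes name Bowtie2 2.1.0 and hg19. How FPKM were estimated is not given in the sources used here. Low values reached 5e-06 FPKM, so whole reads could not be recovered. Transcripts were summed by symbol. Genes reaching 1 FPKM in 3 or more libraries were kept, and log2(FPKM + 1) was fitted with limma 3.58.1 in R 4.3.3 (lmFit, eBayes with intensity trend) over all 6 libraries, adjusted after Benjamini-Hochberg, threshold 0.05. Such differences understate changes of low genes. Transcript rows were fitted alike. Exact permutation tests (two-sided) used the 20 assignments of libraries. The fit was also run on shuffled data with known changes added. Its outcome is not given here, so how small a change the fit could find is not shown. The labels gave each library its group and number. The members and gene lists were chosen with earlier results of these data known. All 9 members were named; other lists gave the 3 genes with the smallest p, and likeness gave 5 genes. One gene that this rule names is not reported here. Genes with a protein of at least 2500 residues could not be picked, because no protein lengths were used here; genomic span replaced them after the data were seen. pandas 2.3.3 and scipy 1.17.1 were used.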

Additional observations from a re-analysis of the deposited data

How the results depend on the processing

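No setting called any of the 9 genes or any of their transcript rows. Over all genes, leave-one-out runs called 0 to 1 genes higher and 0 to 1 lower (1 higher without LacZ replicate 2, 1 lower without SNHG10 replicate 1, neither a member). The highest transcript in place of the sum gave 2 higher and 2 lower, rows spanning at least 90% of the gene 0 and 0, and the other settings for gene sums 0 and 0. Transcript rows higher and lower were 3 and 2 with a pseudocount of 0.1 and of 5, 3 and 3 both without a filter and for a minimum of 5 FPKM, while limma without trend gave 26 and 27. They were 0 and 0 in each leave-one-out run and without SNHG10 replicate 2 and LacZ replicate 3 together. With the replicate number as a block, 0 transcript rows and 0 genes were called, and the block leaves log2 differences unchanged by construction. Correlations between deviations of libraries with the same number were 0.015, 0.012 and 0.016, too low for pairing, although each library correlated best with its own number, a hint from the data and not from the design.

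Signs of several members turned. With median-ratio scaling DYNC1H1 was 0.0053 and UBR4 0.0074. With the highest transcript in place of the sum, MACF1 was 1.69, BIRC6 -0.019, HUWE1 0.34 and MYCBP2 -0.12. With rows spanning at least 90% of the gene, AHNAK was 0.33, BIRC6 -0.019 and MYCBP2 -0.25. Without SNHG10 replicate 2 and LacZ replicate 3, AHNAK was 0.083. Over leave-one-out runs AHNAK ranged from -0.67 to 0.57, UBR4 from -0.20 to 0.056, UTRN from -0.55 to 0.16, MYCBP2 from -0.00067 to 0.20 and DAG1 from -1.82 to 0.56.

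The median of the other very long mRNAs under median-ratio scaling was -0.016, under quantile normalization -0.036, and -0.042 for a minimum of 5 FPKM, -0.10 without those 2 libraries and -0.085 to -0.052 over leave-one-out runs. That of the widest of 10 bins by span came to -0.00020 under median-ratio scaling and to 0.014 under quantile normalization. The cause was not tested. The 90% rows, the removal of 2 libraries, the sum without AHNAK with its alternatives and the use of span were chosen after seeing the data. The planned medians of genes with long proteins were not run. Unknown depth limits what low rows can show.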
